A study of Mus musculus with 12 samples.

Results

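The RNA described here is the RNA that an antibody to YTHDF2 pulled down from wild-type mouse macrophages of the M1 type, relative to its own input, as the authors deposited it in a list of peaks. A peak is a stretch of the genome where reads of the immunoprecipitated RNA are enriched. After identical rows were dropped and each combination of chromosome, start and end was kept once, the list held 17843 peaks that name 7598 genes. Of 27013 genes in the deposited expression comparison, 10778 had enough reads for an adjusted p and are called tested genes, and 7013 of them (65.1%) had a peak. Genes with a peak are called bound and genes without one unbound, which says only whether the list holds a peak there.

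All cells came from C57BL/6 mice. Bone marrow was cultured for 7 days with 20 ng/ml of the growth factor M-CSF, then stimulated for 24 h with LPS at 100 ng/ml and interferon gamma at 20 ng/ml, also in the cells that served as controls, so no unstimulated cells were compared. The YTHDF2 immunoprecipitation (YTHDF2_IP_WT, 2 libraries) used wild-type (WT) cells and 5 µg of antibody, and its input (YTHDF2_Input_WT, 2 libraries) is lysate set aside beforehand. Neither an immunoprecipitation with a control antibody nor one from cells without YTHDF2 was analysed here. Also used were m6A peaks of WT cells (m6A_IP_WT over m6A_Input_WT, 2 libraries each) and the authors' comparison of input RNA between WT and Ythdf2 conditional knockout cells (m6A_Input_WT and m6A_Input_cKO, 2 libraries each). The labels do not name the Cre driver of the knockout, nor whether libraries came from separate mice.

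YTHDF2 is a cytoplasmic protein whose YTH domain binds N6-methyladenosine (m6A), the most common internal modification of mRNA. It is known for bringing the CCR4-NOT deadenylase complex to marked transcripts, which shortens their poly(A) tails and speeds their decay. m6A is placed mostly near stop codons, in 3′ untranslated regions (UTRs) and in long internal exons, at sites with the core motif GGAC. In macrophages, LPS and interferon gamma induce cytokines, chemokines, antiviral effectors and antigen presentation genes, and many of these mRNAs are short-lived.

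Every one of the 17843 entries of the list carries a name that begins with m6a_peak, although the list is deposited as the YTHDF2 experiment. The numbers in these names run from 55 to 25487, so a larger set of peaks had been numbered than is listed. Whether the name is a default of the peak caller or another experiment's list was not tested, and all statements on YTHDF2 rest on the list's deposited label. The list is a single list for the group, with no value per library. No replicate error can therefore be given for any peak, the depth of the libraries is unknown, and the intervals below cover counting of genes only.

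Sequences under the peaks can be shown at a few places where a reference sequence was at hand. The list names 30 genes of the biotype miRNA, and of 1005 mouse miRNA hairpins in RefSeq (GRCm38.p6) 69 touched a YTHDF2 peak and 63 lay inside one. These hairpins mostly lie within other transcripts: for 66 of the 69 the same peak also named an mRNA, and the summit fell in the hairpin itself for 11. The mature miRNAs of the 5 hairpins that the list names, that lie inside a peak and whose peaks have the highest −log10 q are shown because they let a reader see which small RNAs share their locus with a peak. Letters in capitals are the seed, bases 2 to 8, which pairs with target mRNAs.

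mmu-miR-671-5p: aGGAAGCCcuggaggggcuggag
mmu-miR-671-3p: uCCGGUUCucagggcuccacc
mmu-miR-1981-5p: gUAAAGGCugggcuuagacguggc
mmu-miR-1981-3p: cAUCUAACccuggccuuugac
mmu-miR-1902: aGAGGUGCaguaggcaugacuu
mmu-miR-678: gUCUCGGUgcaaggacuggagg
mmu-miR-5125: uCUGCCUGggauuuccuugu

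All 7 seeds differ, so these miRNAs share no seed group. The hairpin of Mir671 (chr5:24592114-24592211, plus strand) lay in a peak of Chpf2, a chondroitin polymerising factor, with a fold enrichment of 3.33. Mir678 (chr10:76207326-76207409, minus strand) lay in a peak of Prmt2, a protein arginine methyltransferase, at 4.77-fold. Mir5125 (chr17:23823291-23823369, plus strand) lay in a peak of Srrm2, a scaffold of splicing speckles, at 2.80-fold. Mir1981 lay in a peak that also names Mosc2, at 4.98-fold, and Mir1902 in a peak that names no mRNA, at 4.05-fold. None of these 5 summits fell in the hairpin, and reads of a miRNA precursor and of its host cannot be told apart.

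Gene starts are the other place with sequence. Of 32851 RefSeq windows that run from 250 bases before to 50 bases after a start, 92 held a YTHDF2 summit and 47 held a summit of the same gene. GGAC occurred on the sense strand in 34 of those 47 windows (72.3%), against 65.6% of all windows, and the longer GGACT, which contains it, in 16 (34.0%) against 26.1%. Counting both strands, GGAC occurred in 41 (87.2%) against 87.7%. Within the first 50 transcribed bases, 9 same-gene summits were examined. For these the 30 bases at the summit were searched for GGAC on the sense strand, and 2 held it. The sites with it, and the site with the highest −log10 q among those without it, are shown with GGAC in capitals.

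Arih1: tcgcgccatGGACtcGGACgagggctacaa
Neurl2: gagaaagcggcgctaGGACccccaggcaga
Nin: gtgagcgctgtgggctatgggatggatgag

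The first site is chr9:59486325-59486354 (minus strand) in Arih1, a ubiquitin ligase, and its peak was at 2.26-fold with the summit in coding sequence. The site of Neurl2, an adaptor of ubiquitin ligases, is chr2:164833567-164833596 (minus strand), and its peak was at 2.26-fold with the summit classed as intron. That peak (chr2:164832875-164833679) also lies within the gene Ctsa (chr2:164832872-164841032), which has 9 peaks, so its transcript of origin is uncertain. The site of Nin, a centrosomal protein, is chr12:70102825-70102854 (minus strand), and its peak was at 3.88-fold with the summit in the 5′ UTR. A match is a description of letters, and its absence says only that these letters are not in the window.

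The peaks of the list were narrow and moderate. Their width had a median of 388 bp (range 200 to 8499), and the fold enrichment at the summit, the authors' own value, had a median of 3.01 with 50% of peaks between 2.46 and 3.78. The authors' −log10 q ran from 1.33 to 69.7, with a median of 13.2. Peaks lay on 21 chromosomes, with 9 on Y and 0 on the mitochondrial chromosome. Of all peaks 16709 named 1 gene and 1134 named more, and 833 (4.67%) named genes on both strands, for which the transcript of origin is uncertain since no source used here states whether strand was used.

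Peaks were spread over many genes. One peak was found in 3182 genes (41.9%) and more than 1 in 4416 (58.1%), with a mean of 2.51 and a median of 2 peaks per bound gene. Genes with 6 or more peaks numbered 560 (7.37% of bound genes) and held 25.1% of all pairs of a gene and a peak. The highest number, 111, was that of Gm20388, but 100 of these peaks also named another gene, which lie in overlapping genes and cannot be told apart from them. The next was Herc2 with 41.

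Several of the tested genes with the most peaks encode giant proteins. Herc2, a giant HECT ubiquitin ligase (chromosome 7, 56050124 to 56231800, mm10), carried 41 peaks, of which 33 had a summit in an intron and 7 in coding sequence. Ubr4, another giant ubiquitin ligase, carried 34, with 23 in introns. Lrp1, an endocytic receptor, carried 33, split into 16 in coding sequence, 16 in introns and 1 in the 5′ UTR. Rnf213, an interferon-responsive ubiquitin ligase of giant size, carried 32, and Dync1h1, the heavy chain of cytoplasmic dynein, 29. The crosslinkers of the cytoskeleton Macf1 and Dst carried 26 and 23, mostly in coding sequence (18 and 14). Herc1 and the kinase Map4k4 carried 24 each, 11 and 20 of them in introns, and the histone methyltransferase Kmt2d carried 22. Among these 10 genes the overlap with m6A varied widely: 11 of the 26 peaks of Macf1 overlapped an m6A peak, against 1 of 41 in Herc2 and 0 of 34 in Ubr4 and 0 of 33 in Lrp1, which have no m6A peak.

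**Figure D1:**
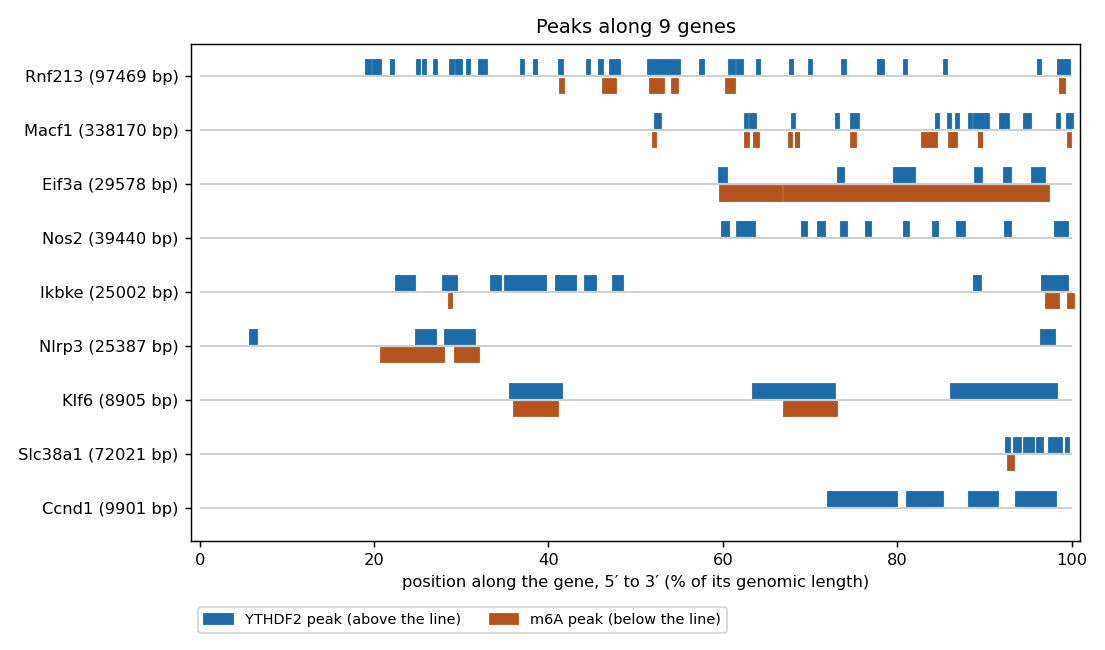
Peaks along 9 genes, drawn as the percent of each gene's genomic length from its 5′ to its 3′ end, with YTHDF2 peaks above and m6A peaks below each line (an m6A peak can span introns). Peaks of Rnf213 run over much of the gene, and those of Macf1 begin at 52.2% of its length. All 6 of Slc38a1 and all 4 of Ccnd1 lie near the 3′ end, and Nos2 and Ccnd1 have no m6A peak.

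Of the 10 genes with the highest −log10 q, Herc1 alone was also among the 10 with the most peaks. The highest −log10 q, 69.7, belonged to an intron peak of Taf1, the largest subunit of the general transcription factor TFIID, at chrX:101595926-101596218 with a fold enrichment of 10.9. That peak overlapped an m6A peak, and the other 6 peaks of Taf1 lay between 3.53- and 7.27-fold. Btbd1, a BTB-domain adaptor, had 1 peak, in its 3′ UTR (chr7:81792143-81792484), at 7.14-fold and a −log10 q of 60.7. It also has 1 m6A peak, which this peak did not overlap. Plcb3, a phospholipase C, reached a −log10 q of 62.1 at 6.41-fold. Arpc1a, a subunit of the actin-nucleating ARP2/3 complex, reached 55.7 at 5.94-fold, the myosin Myh9 55.0 at 4.91-fold, the membrane-scission factor Chmp4b 54.9 at 3.61-fold and the dynactin subunit Dctn1 53.5 at 5.86-fold. Herc1 (53.0), Ccdc71l (53.3) and 1810037I17Rik (59.9) complete the 10 highest. Across peaks, fold enrichment and −log10 q had a Spearman correlation of 0.56, given as a description over 17843 peaks.

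Almost all bound genes were protein-coding. By the list's own biotype column, 7213 genes (94.9%) were mRNAs, and 17679 peaks (99.1%) named one. Antisense genes numbered 135, processed transcripts 103, miRNAs and small nucleolar RNAs 30 each, processed pseudogenes 27 and long intergenic noncoding RNAs 12. The 385 genes without an mRNA biotype had 590 peaks, and 428 of these (72.5%) named an mRNA as well. For antisense genes that share was 90.8% of 250 peaks and for long intergenic noncoding RNAs 7.14% of 14. The median fold enrichment was 3.01 for mRNA peaks, 2.98 for antisense, 2.75 for miRNA, 2.65 for small nucleolar RNA and 3.35 for long intergenic noncoding RNA peaks.

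Among tested noncoding genes, the 5 with the highest −log10 q were mostly copies or neighbours of coding genes. Gm12854, a processed pseudogene, reached 39.7 with 1 peak at 4.02-fold, which the list also names to Uqcrh, a subunit of respiratory complex III. H2-K2, listed as a processed pseudogene of the MHC class I family, reached 39.1 with 3 peaks. Vcp-rs, a copy of the ATPase gene Vcp, reached 28.5 with 3 peaks, and the antisense genes Gm17201 and Zeb2os reached 34.5 and 30.2 with 2 peaks each. No source used here states how reads shared with a near-identical copy were counted, so these values cannot be assigned to one gene.

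Well-known long noncoding RNAs had a lower bound share than genes of like counts. Of 15 tested members of that list 4 (26.7%, 95% Wilson interval 10.9 to 52.0) had a peak, against 57.2% expected from the bound shares of genes of like mean count. Oip5os1 had 3 peaks, the highest at 3.90-fold. Neat1, the scaffold of nuclear paraspeckles, had 1 peak of 2.11-fold (chr19:5842408-5845496), Tug1 1 of 3.18-fold and Malat1, an abundant nuclear RNA, 1 of 1.57-fold that also names another gene. Mir155hg, the host of miR-155, Dleu2, Firre and 2900097C17Rik had none. Host genes of small nucleolar RNAs were bound in 6 of 9 cases (66.7%, interval 35.4 to 87.9, against 44.8%), among them Gas5 with 3 peaks and Snhg15 with 2. Of the 6, 3 were placed by position because the list does not use their symbols. For Snhg8 and Snhg5 the listed biotype is small nucleolar RNA, so signal of that RNA and of its host cannot be told apart. By name alone the host genes lay below genes of like count instead (difference −10.9 percentage points, in place of 21.8). The list holds peaks assigned to genes on 1 transcript each, and whether its annotation covers every noncoding RNA was not tested.

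The bound share moved with the number of reads of a gene. The mean normalized count in the authors' deposited table (baseMean, an average over the input libraries of both genotypes, not per length) was used to sort the 10778 tested genes into 10 classes of like size. In the lowest class, with mean counts of 48.0 to 99.6, 196 of 1078 genes (18.2%, interval 16.0 to 20.6) were bound. The share was higher in each class than in the class below it, with 46.8% in class 3, 71.5% in class 5, 86.1% in class 8 and 90.3% (interval 88.3 to 91.9) in the highest. Among the 16235 genes without an adjusted p, 382 (2.35%) were bound, by symbol alone, since placement of peaks by position was limited to tested genes. The median mean count was 1186 for bound and 237 for unbound tested genes, and the median genomic length 25050 and 17060 bp.

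Peaks per bound gene were more numerous at high counts as well, with a mean of 1.57 in the lowest class and 3.54 in the highest. The gene's highest fold enrichment went the other way, with a median of 4.29 in the lowest class and 2.67 in the highest, while its highest −log10 q had medians of 9.25 and 20.6. Over 7013 bound tested genes the Spearman correlation with mean count was 0.30 for the number of peaks and −0.39 for the highest fold enrichment. These are descriptions across genes, which share the same pooled libraries. The place of the summits moved too: 16.8% of summits in the lowest class and 31.6% in the highest lay in an intron, and the 3′ UTR held 45.7% and 26.6%, with the highest value, 51.1%, in class 3. The part that unspliced RNA plays in the intron share was not tested.

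**Figure D2:**
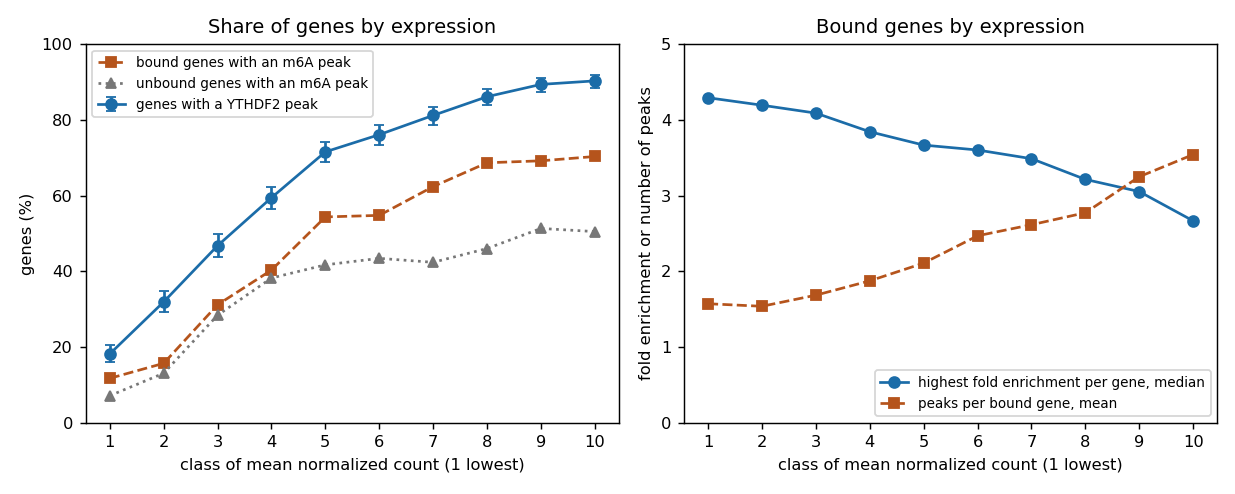
Left, the share of tested genes with a YTHDF2 peak by class of mean normalized count (10 classes, 1 lowest, points with 95% Wilson bars, counting error only), and the share of bound and of unbound genes that also carry an m6A peak. Right, the median of the highest fold enrichment per bound gene and the mean number of peaks per bound gene. The bound share is 18.2% in the lowest and 90.3% in the highest class, and the highest fold enrichment 4.29 and 2.67.

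The most abundant transcripts show both ends of this. Fth1, the heavy chain of the iron store ferritin, had the highest mean count of a bound gene and 1 peak, at 1.39-fold the lowest fold enrichment of the whole list. Saa3, an acute-phase protein, had 1 peak of 1.50-fold, Lyz2, the lysozyme of macrophages, 1 of 1.74-fold, and Tmsb4x, an actin-binding peptide, 1 of 1.68-fold. The lysosomal genes Psap and Ctsb carried 11 and 6 peaks, at most 2.70- and 2.44-fold, 9 of those of Psap in introns. Gpnmb, a glycoprotein of activated macrophages, carried 9, the MHC class I genes H2-D1 and B2m 3 and 2, and the protease Ctss 2. The tested features with the highest mean counts and no peak were CT010467.1, Gm23935, Lars2, mt-Co1, mt-Rnr2, Ms4a6d, mt-Rnr1, Cd68, Capg and Ubb. The first of these resembles ribosomal RNA and 3 are mitochondrial. Ms4a6d, a membrane protein of macrophages, Cd68, a lysosomal marker of macrophages, Capg, an actin-capping protein, and Ubb, a polyubiquitin gene, carry 2, 1, 1 and 3 m6A peaks without a YTHDF2 peak.

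The bound share also moved with gene length. In 5 classes of RefSeq genomic length, from short to long, the bound share was 51.2%, 66.1%, 68.8%, 71.6% and 72.5%, and the mean number of peaks per bound gene ran from 1.68 to 3.42. In the highest of 5 count classes, 78.5% of the shortest and 94.2% of the longest genes were bound, with 2.02 and 4.91 peaks. In the lowest of 5 count classes the shares were 20.9% and 27.5%, with 1.35 and 1.58 peaks. Length and number of peaks had a Spearman correlation of 0.25 over 6996 bound genes.

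**Figure D3:**
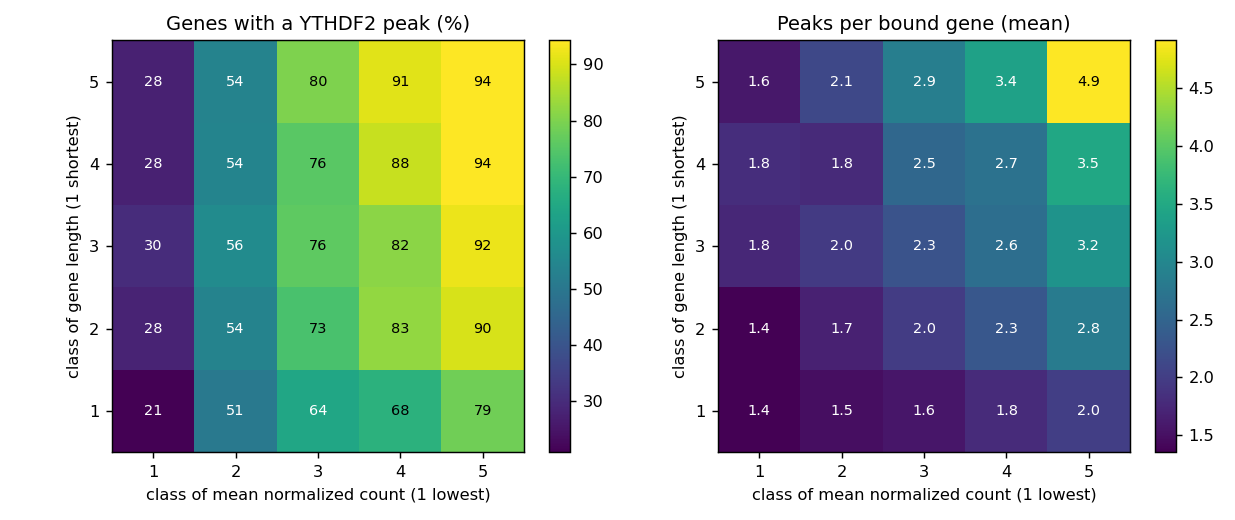
Share of tested genes with a YTHDF2 peak (left, percent) and mean number of peaks per bound gene (right), by class of mean normalized count on the x axis and of genomic length on the y axis (5 classes each). Bound shares run from 20.9% in short genes of low count to above 94% in the longest genes of high count.

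Because the bound share moved with count and length, each gene list below is given with its own share and the share that genes in the same 10 count classes had (its share at like count). Of 32 lists, 11 lay at least 10 percentage points below genes of like count, 8 at least 10 points above, and 13 within 10 points. With length matched as well as count, in 5 classes of each, these became 9 below and 7 above, over the lists in which at least 80% of the members have a RefSeq length, which leaves out the mitochondrial genome. With peaks limited to a fold enrichment of at least 3, 11 lists lay at least 10 points below and 5 above. The 5 hold 3 of the 8 (the MAP kinase cascade at 14.6 points, HECT and giant ligases at 31.2 and chromatin regulators at 35.6) and 2 others (mRNA decay at 18.8 and glycolysis at 10.2). No test was made of any list, and 65.1% is the share over all tested genes.

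**Figure D4:**
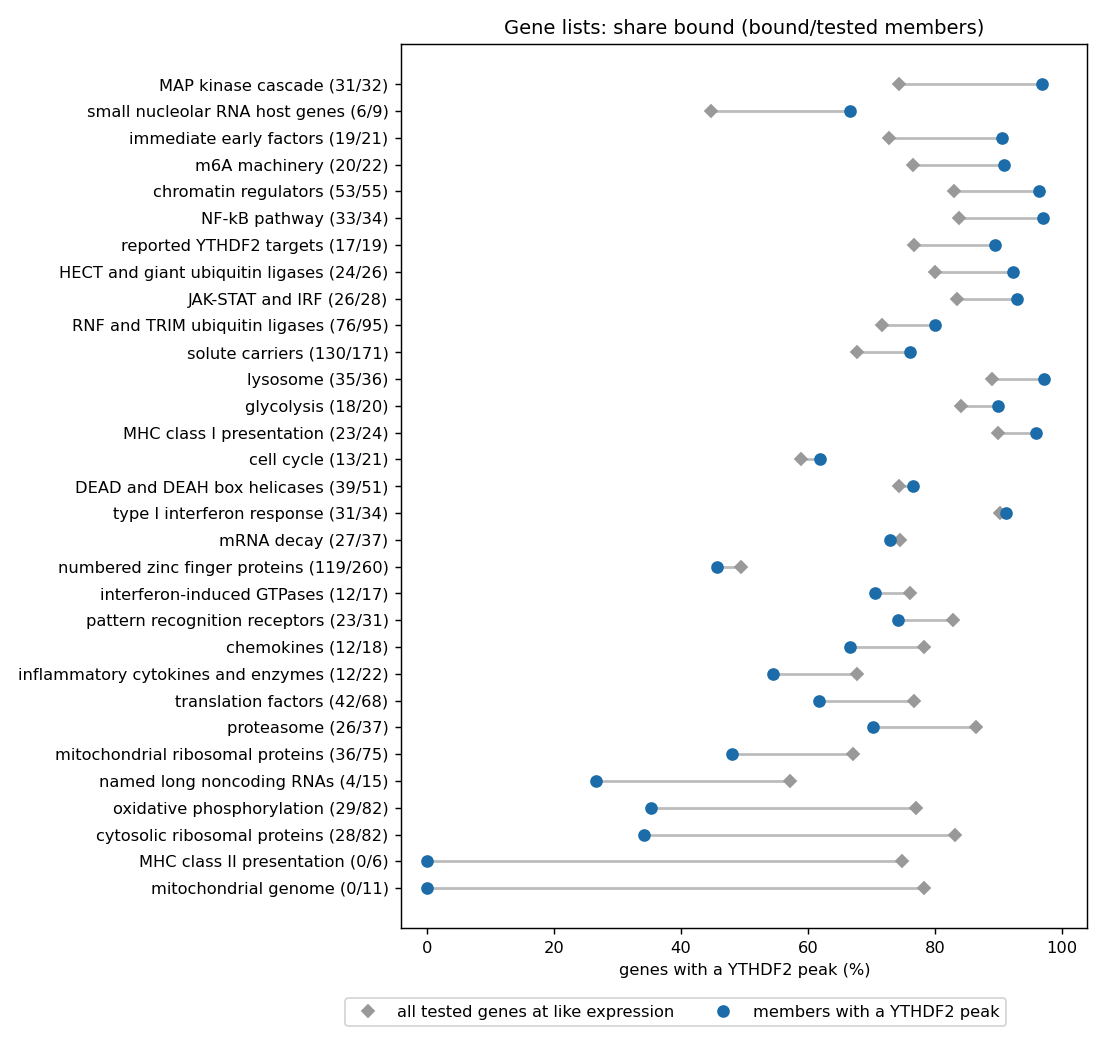
For each gene list with at least 5 tested members, the percent of tested members with a YTHDF2 peak (circles) and the percent expected from all tested genes in the same classes of mean normalized count (diamonds), with bound and tested members in brackets. The MAP kinase cascade lies farthest above (31 of 32) and the mitochondrial genome, MHC class II and cytosolic ribosomal proteins farthest below.

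Short housekeeping mRNAs of the translation and respiration machinery had lower bound shares than genes of like count. Of 82 tested cytosolic ribosomal protein genes 28 (34.1%) were bound, against 83.2% at like count and 72.6% at like count and length. Their peaks were few, 41 in all, and 20 of the 41 summits lay in introns, 18 in coding sequence and 3 in a 3′ UTR. Rpl13a had 4 peaks, 3 of them in introns, where small nucleolar RNAs are encoded in this gene, and Rps27a had 3. Rps3, at 2 peaks, reached 3.23-fold, and Rps3a1 also had 2. Rps24, Rplp0, Rpl8 and Rpl7, the unbound members with the highest counts, had none. Many ribosomal protein genes have processed copies elsewhere in the genome, and no source used here states how shared reads were placed.

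Oxidative phosphorylation subunits were bound in 29 of 82 cases (35.4%), against 77.0% at like count and 70.6% at like count and length. Without the 5 members whose symbols mark them as pseudogenes, a choice made after seeing the data, 29 of 77 (37.7%) were bound against 79.1%. Sdha, the flavoprotein of complex II, had 4 peaks and the complex I subunit Ndufs1 had 3, the highest at 4.98-fold. Sdhb of the same complex II had none, nor had the ATP synthase subunits Atp5b, Atp5c1 and Atp5j2. Mitochondrial ribosomal proteins were bound in 36 of 75 cases (48.0% against 67.2%), Mrps25 and Mrpl37 with 3 peaks each, whereas Mrpl39 and Mrps18a had none. Of 11 tested genes of the mitochondrial genome 0 were bound, against 78.2% at like count, and the list has no peak on that chromosome at all. A RefSeq length was matched for 2 of the 11, so no share at like length is given. The only tested histone gene, Hist1h2al, was unbound as well.

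The proteasome was bound in 26 of 37 cases (70.3% against 86.4%). Psmd2 and Psmd13, subunits of the regulatory particle, carried 4 and 3 peaks, the latter with a −log10 q of 43.7, while Psma1, Psma6 and Psma7 of the outer ring of the core particle had none. Translation factors and genes named after them were bound in 42 of 68 cases (61.8% against 76.7%). Without pseudogenes and the kinases, methyltransferases and binding partners of these factors, also chosen after seeing the data, 35 of 52 (67.3%) were bound against 81.2%. The scaffold Eif4g1 carried 8 peaks, at most 4.18-fold, and Eif4g3 6. Eif3a, the largest subunit of the initiation factor eIF3, carried 6 peaks of 2.06- to 4.17-fold that all lay in coding sequence and all overlapped 1 of its 2 m6A peaks, whose spans include introns. Of the other eIF3 subunits, Eif3b had 5 peaks, Eif3c 3 and Eif3g 1, whereas Eif3h, Eif3f and Eif3e and the remaining tested subunits had none.

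Signalling and chromatin genes lay on the other side. In the MAP kinase cascade 31 of 32 tested members were bound (96.9%), against 74.4% at like count and 75.2% at like count and length. Map3k1, a kinase at the top of the JNK branch, had 9 peaks, and Mapk6 had 6. The phosphatase Dusp8 had 6, the highest at 11.4-fold, and Map2k7, which activates JNK, had 5, all in introns. Map2k6 was the unbound member. In the NF-kB pathway 33 of 34 members were bound (97.1% against 83.8%), but with peaks of at least 3-fold alone the difference of 13.3 points came to 1.35. Ikbke, a kinase that phosphorylates IRF3 and IRF7, had 9 peaks, the precursor of p52 Nfkb2 had 6, and the kinase Ikbkb and the ubiquitin ligase Birc2 had 5 each. Map3k8, a kinase that links LPS to ERK, had no peak and 1 m6A peak.

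Immediate early factors, the transcription factors and decay adaptors that LPS induces first, were bound in 19 of 21 cases. This was 90.5% (interval 71.1 to 97.3), against 72.8% at like count and 65.4% with length. Their summits lay in the 3′ UTR in 16 of 29 cases (55.2%) and in an intron in 1. Mafk, Fosl2, Klf6 and Zfp36l2 had 3 peaks each, 2 of them in the 3′ UTR in each gene. Of the 3 peaks of Klf6, a factor of inflammatory macrophages, the 1 in coding sequence (1.77-fold) and 1 in the 3′ UTR (1.70-fold) overlapped m6A peaks, and the other at the 3′ end (2.14-fold) did not. Zfp36l2, which binds AU-rich elements and recruits CCR4-NOT, reached 4.01-fold. All 17 members with an m6A peak were bound, and Egr1 and Myc, of low count, were unbound. With peaks limited to a fold enrichment of at least 3 the list lay 1.52 points below genes of like count (−1.52), in place of 17.6 above.

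Chromatin regulators were bound in 53 of 55 cases (96.4% against 82.9%), with a mean of 6.40 peaks per bound member. Kmt2d had 22, the methyltransferase Nsd1 15, the remodeller Chd4 14 and the demethylase Kdm5c 13. Kmt2e had none although it carries 8 m6A peaks, and Ezh2 had none. At like count and length the expected share was 86.8%, so the difference was 9.57 points. HECT and giant ubiquitin ligases were bound in 24 of 26 cases (92.3%, interval 75.9 to 97.9, against 80.0%, or 84.8% with length). The bound members had a mean of 7.88 peaks, and 94 of their 188 summits lay in introns. Herc2, Ubr4 and Herc1 supplied most of these, and without them 27 of 89 summits lay in introns (30.3%).

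The genes of the m6A machinery were themselves mostly bound, 20 of 22 (90.9%, interval 72.2 to 97.5, against 76.5%). Zc3h13 and Rbm15, parts of the methyltransferase complex, had 6 and 5 peaks, 4 and 3 of them over m6A. The nuclear reader Hnrnpa2b1 and the translation regulator Fmr1 had 3 each. Ythdf2 itself and Cbll1, which encodes the writer-complex subunit Hakai, had no YTHDF2 peak and 2 and 3 m6A peaks. Transcripts that other studies of YTHDF2 name as its targets, a list compiled from background knowledge, were bound in 17 of 19 tested cases. This was 89.5% (interval 68.6 to 97.1), against 76.8% at like count. Map4k4 (24), Crebbp (8), Axin1 (6) and Tnfrsf1b (6) had the most peaks, and 36 of the list's 71 summits lay in introns, 20 of them in Map4k4. Without that gene 16 of 47 summits (34.0%) did. Creb3l1 and Myc were unbound. mRNA decay factors were bound in 27 of 37 cases (73.0% against 74.5%), with 41 of 81 summits in the 3′ UTR. The list lay 8.55 points above genes of like count with peaks of a −log10 q of at least 10, and 18.8 above with peaks of at least 3-fold. The poly(A)-binding protein Pabpc1 and the nonsense-mediated decay endonuclease Smg6 had 6 peaks each and the helicase Upf1 5, whereas the CCR4-NOT subunits Cnot2 and Cnot4 had none.

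The response genes of M1 macrophages split by class. Type I interferon response genes were bound in 31 of 34 cases (91.2%), near the 90.2% of genes of like count. With peaks of at least 3-fold alone the difference was −12.5 points. Adar, the RNA-editing deaminase, had 10 peaks, Trim25, a ligase of RIG-I signalling, 8, Mx1, an antiviral GTPase, 7, and Parp14 6. Samd9l, Isg20 and Ifih1, which encodes the RNA sensor MDA5, were unbound and carry 4, 2 and 2 m6A peaks. Interferon-induced GTPases were bound in 12 of 17 cases (70.6% against 76.1%). Gbp5 had 4 peaks and Gbp3 3. Gbp8 and Gbp9 had 8 and 6 peaks, at most 3.87-fold, and the 6 peaks of Gbp9 are all listed under Gbp8 too, so they cannot be assigned to 1 of these genes. Gbp2, Gbp6, Tgtp1 and Gbp11 had none.

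With all peaks, cytokines and chemokines had lower shares than genes of like count, by less than their counting intervals. Inflammatory cytokines and enzymes were bound in 12 of 22 cases (54.5%, Wilson interval 34.7 to 73.1, against 67.7%). Nos2, the inducible nitric oxide synthase, had 11 peaks of 1.76- to 2.83-fold, 8 of them in introns, and no m6A peak. The growth factor Vegfa had 8, and Tnf had 2. In Tnf, the peak in the 3′ UTR (chr17:35199479-35200774) was at 2.56-fold without m6A overlap and the peak in coding sequence at 1.86-fold over m6A. Il1b, Il1a, Ptgs2, which encodes cyclooxygenase 2, and Lcn2, an iron-sequestering lipocalin, were unbound at mean counts of 8766, 3641, 1801 and 14164 in the authors' deposited table. The standard errors of their log2 fold changes between genotypes were 1.17, 1.19, 0.43 and 0.13. For Il1b, Il1a and Ptgs2 the mean over both genotypes may therefore not describe the WT cells alone. Chemokines were bound in 12 of 18 cases (66.7%, interval 43.7 to 83.7, against 78.2%, or 70.8% with length), with 14 peaks in all. Their difference of −11.5 points came to −42.3 with peaks of a −log10 q of at least 10 and −27.7 with peaks of at least 3-fold. For inflammatory cytokines and enzymes the values were −13.2, −8.09 and −9.11 points in the same order. Ccl2, which attracts monocytes, and Ccl25 had 2 peaks each, and Ccl4 and Cxcl16 had 1 each. Cxcl9, Cxcl11, Ccl12 and Ccl8 had none, Cxcl9 with 4 m6A peaks.

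Antigen presentation differed between its classes. MHC class I genes were bound in 23 of 24 cases (95.8% against 90.0%, or 83.2% with length). With peaks of at least 3-fold alone they lay below genes of like count (−3.10 points). The transactivator Nlrc5 had 9 peaks of 2.11- to 3.46-fold, the peptide transporter genes Tap2 and Tap1 7 and 5, and H2-M3 4, and the proteasome activator Psme1 had none. Of 6 tested MHC class II genes 0 were bound, which allows a share of up to 39.0% by the Wilson interval, against 74.8% at like count and 69.4% with length. They included the invariant chain Cd74 at a mean count of 2818 and H2-Ab1 at 1301. Pattern recognition receptors were bound in 23 of 31 cases (74.2% against 82.9%), a difference of −8.67 points that came to −30.9 with peaks of at least 3-fold alone. Nod1 had 5 peaks, the inflammasome sensor Nlrp3 4 and the adaptor Ticam1 4, all 4 over m6A. Tlr4, the receptor of LPS, had 4 peaks, all in introns. Tlr1, Tlr2 and Tlr6, which act as dimers on lipoproteins, were unbound, though they carry 3, 4 and 3 m6A peaks, as was Ly96, the LPS-binding partner of TLR4. In the JAK-STAT and IRF list 26 of 28 were bound (92.9% against 83.4%), Jak1 and Tyk2 with 7 peaks each and Irf7 and Stat6 with 5, while Irf3 and Stat4 had none.

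Lysosomal, glycolytic and transport genes had shares less than 10 points above genes of like count. Lysosomal genes were bound in 35 of 36 cases (97.2% against 89.0%), with 55 of 110 summits in introns. Ctsa had 9 peaks, the cholesterol exporter Npc1 8 and the protease Ctsd 6, and the ceramidase Asah1 was the unbound member. Glycolysis genes were bound in 18 of 20 cases (90.0% against 84.1%): the hexokinases Hk3 and Hk2 had 9 and 7 peaks, Pfkfb3, which drives the flux-controlling step, 8 and the pyruvate kinase Pkm 8, and Pgam1 and Aldoc had none. Solute carriers were bound in 130 of 171 cases (76.0%, Wilson interval 69.1 to 81.8, against 67.8%). Slc38a1, a glutamine carrier, had 6 peaks of 2.18- to 4.55-fold, all in the 3′ UTR, whereas 17 of 18 peaks of the urate carrier Slc2a9 lay in introns. Slc25a5, which exchanges ADP and ATP, and Slc13a3 had none.

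Large families near the level of like genes included ligases of the RNF and TRIM families (76 of 95, 80.0% against 71.7%), DEAD and DEAH box helicases (39 of 51, 76.5% against 74.3%) and numbered zinc finger proteins (119 of 260, 45.8% against 49.5%). Of the helicases, Ddx17 had 9 peaks and Ddx5 7, and Ddx60, an antiviral helicase, and Dhx15 had none. Among zinc finger genes, Zfp652 had 14 peaks and Zfp292 8, while Zfp646 and Zfp62 had none and carry 5 m6A peaks each. Cell cycle genes were bound in 13 of 21 cases (61.9% against 58.9%), and 18 of their 30 summits lay in the 3′ UTR. All 5 peaks of Ccnd2 and all 4 of Ccnd1, both D-type cyclins, lay in the 3′ UTR with no m6A peak in either gene. The peaks of Ccnd1 were at 1.85-, 2.43-, 2.57- and 3.91-fold in the order of mm10 positions. Pcna, Tpx2, Cdk1 and Mcm2 had none.

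Where on the transcript a peak lay differed between lists. Over all peaks 38.7% of summits lay in the 3′ UTR, 35.2% in coding sequence, 22.8% in an intron and 2.00% in the 5′ UTR. Against that background the 3′ UTR held 60.0% of summits in cell cycle genes, 55.2% in immediate early factors, 51.2% in solute carriers and 50.6% in mRNA decay factors, but 7.32% in cytosolic ribosomal proteins, 13.8% in HECT and giant ligases (28.1% without Herc2, Ubr4 and Herc1), 16.7% in the proteasome and 17.5% in oxidative phosphorylation. Introns held 55 of 110 summits in the lysosome list and 20 of 41 in cytosolic ribosomal proteins. Introns are those of the transcript that the list gives for a gene, and may hold exons of its other isoforms. Intron peaks had the higher values, with a median fold enrichment of 3.36 and −log10 q of 15.2, against 2.91 and 12.4 for 3′ UTR peaks and 2.94 and 12.9 for coding peaks. Of all peaks 912 (5.11%) overlapped no exon of the named transcript, and 103 bound tested genes had no exonic peak.

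**Figure D5:**
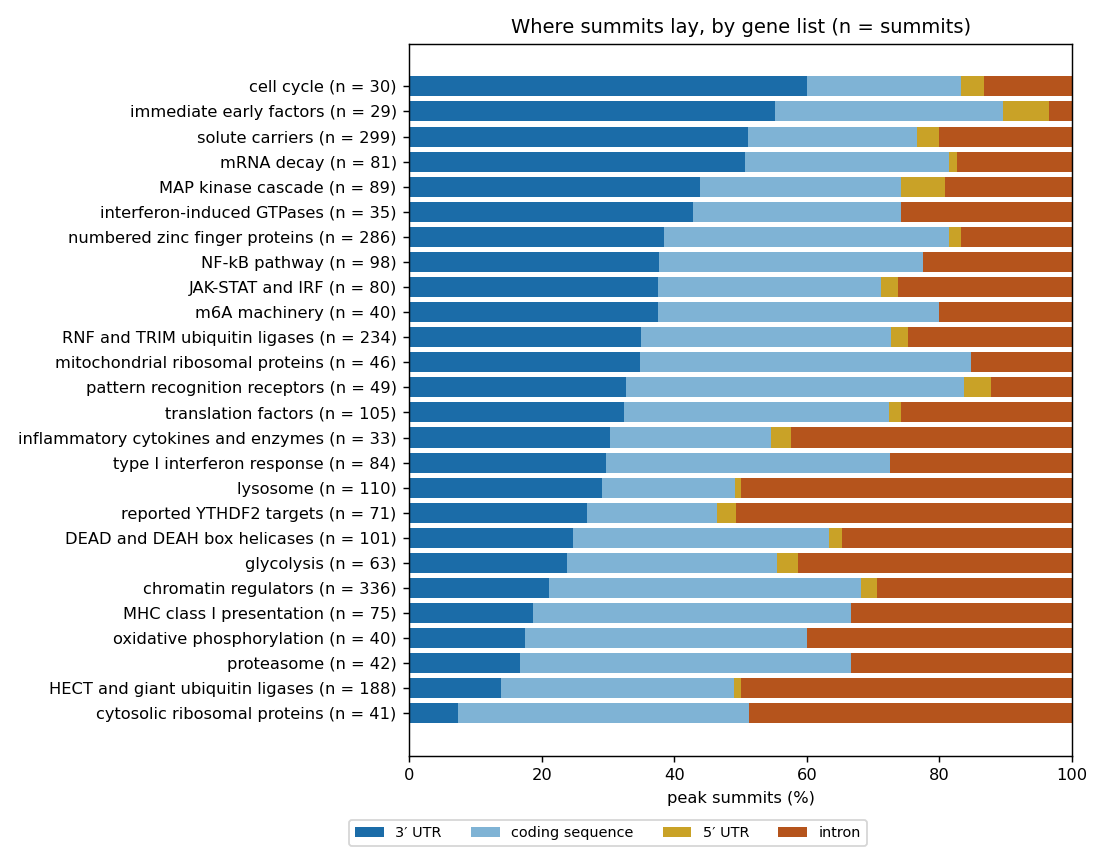
Share of peak summits in introns, 5′ UTR, coding sequence and 3′ UTR (percent of summits, stacked) for each gene list with at least 20 summits, with the number of summits in brackets. The 3′ UTR share runs from 7.32% in cytosolic ribosomal proteins to 60.0% in cell cycle genes.

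m6A peaks were found in a larger share of bound than of unbound genes, with the wider gap at high counts. Of bound tested genes 3892 of 7013 (55.5%) carried an m6A peak, and of unbound ones 996 of 3765 (26.5%), against 45.4% of all tested genes. In reverse, 79.6% of 4888 m6A genes and 53.0% of the others were bound. Within the 10 count classes the gap was small at the low end and wider above: 31.2% of bound and 28.4% of unbound genes carried m6A in class 3, 40.3% and 38.2% in class 4, 54.3% and 41.7% in class 5, and 70.3% and 50.5% in the highest. In the highest class 92.8% of m6A genes were bound, against 84.8% of genes without m6A. Of the lists, immediate early factors carried m6A in 17 of 21 tested members (81.0%) and pattern recognition receptors in 24 of 31 (77.4%), while cytosolic ribosomal proteins did in 17 of 82 (20.7%), of which 6 were also bound.

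At the level of positions the overlap was partial. Of all YTHDF2 peaks 4123 (23.1%) overlapped an m6A peak by at least 1 bp, and in tested genes that carry m6A 4106 of 11093 did (37.0%). Of the 3892 bound genes with m6A, 2917 (74.9%) had at least 1 such overlap. Overlap was possible only for the 9289 of 10290 m6A peaks that were placed on a chromosome, whereas genes with m6A were counted by symbol. These overlap shares may therefore be too low. The share was highest for coding-sequence summits (30.4% of 6288), then 3′ UTR (23.2% of 6902), 5′ UTR (22.2% of 356) and intron summits (11.3% of 4075). Among peaks of higher fold enrichment the overlap share was lower. It was 31.6% in the lowest 25% by fold enrichment (1.39 to 2.46), 26.4%, 20.7% and then 13.6% in the highest (3.78 to 15.5). The share in introns was 15.2% in the lowest and 33.3% in the highest. With peaks of a −log10 q of at least 5 the overlap share was 23.4%, near that of all peaks. Fold enrichment was higher in genes of low count, and m6A was found in 7.98% of genes in the lowest of 10 count classes and 68.4% in the highest. Overlap by fold enrichment at like count was not tested. Bound genes with m6A carried a mean of 2.85 peaks and those without 2.20. The former also had higher mean counts (median 1595 against 751), and the number of peaks at like count was not tested. Peaks of the m6A list can span introns, as in Eif3a, and what this adds to the overlap was not tested.

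The genotype comparison gives a second readout of the bound genes. By the Wald test in the authors' deposited table, 250 tested genes of 10778 (2.32%) were called at an adjusted p of 0.05, 190 with a positive (1.76%) and 60 with a negative log2 fold change (0.557%). Ythdf2 itself is positive, but no source used here says which genotype a positive value favours. Of bound genes 144 (2.05%) were positive and 36 (0.513%) negative, and of unbound genes 46 (1.22%) and 24 (0.637%). Bound genes have higher counts and smaller standard errors (median 0.148 against 0.249), and the order of the positive shares differed among 4 count groups of like size, while the negative share was lower in bound genes in each of them. In the highest group 89 of 2406 bound genes (3.70%) and 16 of 289 unbound genes (5.54%) were positive, and 18 (0.748%) and 7 (2.42%) negative. In group 3 of the 4, 25 of 2152 bound (1.16%) and 12 of 542 unbound genes (2.21%) were positive, and 0.465% and 1.66% negative. In groups 2 and 1 bound genes had the higher positive share, 1.43% against 1.19% and 0.777% against 0.312%, and the lower negative share, 0.475% against 0.593% and 0% against 0.104%. The difference between bound and unbound genes was not tested. By direction alone, 52.3% of bound genes and 42.0% of unbound genes lay above 0, and in the highest group 66.1% of bound genes with m6A, 53.7% of bound genes without, 59.6% of m6A genes without a YTHDF2 peak and 29.1% of genes with neither. The median log2 fold changes of those 4 sets were 0.06, 0.01, 0.03 and −0.09, each smaller than the median standard error of 0.12 in its set.

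The markers of the labelled cell type were present. All 10 macrophage markers were tested, at mean counts of 2991 to 204979, and 9 had a YTHDF2 peak, with 5 in Csf1r, the receptor of M-CSF, 2 in Adgre1 and none in Cd68. Of 8 neutrophil markers 3 were tested and Csf3r, which macrophages can express, was the 1 with peaks (2), while S100a8 and S100a9 had none. Of 5 fibroblast markers 4 were tested, at mean counts up to 580, and Col1a1 and Col1a2 had 1 peak each. No T or NK cell, dendritic cell, erythroid or mast cell marker was tested, and 1 B cell marker, Cd79b, was tested without a peak. The part of other cells in any bound gene was not tested.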

How the data were processed

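RNA bound by YTHDF2 and its input were sequenced in 2 libraries each, and 0 columns hold values of a library. The peak list gives, per the file's column order, a fold enrichment, which is a ratio deposited by the authors, and, as deposited, a −log10 p-value and a −log10 q-value. Its score is an integer deposited by the authors. The m6A list, as deposited, holds gene, start, end and strand. The expression table, per the file headers, holds a mean normalized count that the authors deposited (a signal averaged over libraries after scaling), a log2 fold change and standard error given by the authors, a Wald score as deposited, and the p-value and adjusted p-value of the authors. HISAT2, HOMER, ChIPseeker and mm10 are named in the submitters' processing notes without roles.

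Of 45541 rows 3234 repeats were dropped. Symbols were matched to the expression table directly (6729) or by RefSeq synonym (615), and 254 were unmatched. Peaks without a matched symbol were placed by position in the RefSeq interval of a tested gene that no peak named (150 peaks, 55 genes). An m6A peak was placed within 1000 bp of its gene, as 9289 of 10290 were. Shares at like count weight the bound share of each of 10 mean count classes, over all tested genes, by the members' classes. Wilson intervals are at a level of 0.95. Scripts used Python 3.11.15, pandas 2.3.3, numpy 2.4.6, SciPy 1.17.1 and matplotlib 3.10.9, and were tested on simulated data. The members and lists were chosen with earlier results of these data known. Named genes are the 10 with the most peaks, the highest −log10 q, the highest mean count with and without a peak, the 5 top noncoding genes, and of each list up to 4 bound members with the most peaks and up to 4 unbound members of highest mean count, with the cell type markers beside them. Outside this rule are the genes of the sequence sites, Gm20388 and the eIF3 subunits Eif3b, Eif3c and Eif3g. Not every gene that the rule gives is named. No significance test was run, since a list without library values allows none. Alternatives covered peak thresholds, the mean count filter, the overlap rule, merging of near peaks and, added after seeing the data, matching by name alone, matching on length (members with a RefSeq length, in lists where at least 80% have one) and lists without pseudogenes and enzymes acting on translation factors. Summit sites on chromosome 18 were not searched for motifs here.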

Additional observations from a re-analysis of the deposited data

How the results depend on the processing

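No paired analysis was possible because no file used holds a value per library, and leaving out a library could not be run for the same reason; depth limits every bound share in a way that could not be measured. With peaks limited to a fold enrichment of at least 3, 4864 genes were bound (7598 with all peaks), 41.7% of tested genes (65.1%), 17.2% of peaks overlapped m6A (23.1%) and 5 lists lay at least 10 points above genes of like count (8). The bound share was 61.4% at a −log10 q of at least 5, 49.9% at 10, 52.7% of genes with a mean count of at least 10, 70.3% at 100 and 27.4% of all genes. An overlap of at least 50% of the shorter peak gave 19.1%. Bound genes carried m6A in 56.8% of cases at a mean count of at least 100 and in 53.6% with no filter (55.5%). Genes called between genotypes numbered 180 among the 7013 bound genes, beside 250 of all 10778 tested genes (2.32%). Of the 180, 142 lay in the upper 50% by count, for which the shares of bound and unbound genes are given above by count group. Of 19 lists at least 10 points from genes of like count, 17 kept their direction under every alternative run, among them the histones, with 1 tested member in the main setting. Immediate early factors turned to −1.52 at a fold enrichment of at least 3, and small nucleolar RNA host genes to −2.81 there, −4.77 at a −log10 q of at least 10 and −10.9 by name alone (chosen after seeing the data). Fewer peaks enter under the stricter thresholds, and the cause of these turns was not tested beyond that. Leaving out pseudogenes and enzymes changed the tested members of oxidative phosphorylation, translation factors and solute carriers alone. For all other lists that alternative repeats the main value. Of 287 values of lists under alternatives, these repeats included, 265 differed from the main value by at most 50% of the width of the list's Wilson interval. That margin is wide for small lists. A further 18 differed by more, and the 4 above turned. Among the 13 lists within 10 points of genes of like count the sign changed as well: mRNA decay (−1.50) came to 18.8 at 3-fold, 8.55 and 2.01 at a −log10 q of at least 10 and 5 and 0.66 with no filter, type I interferon response (0.97) to −12.5 and MHC class I (5.86) to −3.10 at 3-fold, and DEAD and DEAH box helicases (2.16) to −2.18 and −2.23 at a −log10 q of at least 5 and 10. In all, 26 of 32 lists kept their sign under every alternative run.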
